A study of Mus musculus with 30 samples.

Results

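Nucleus pulposus (NP) tissue of SM/J mice, an inbred strain known for poor cartilage repair, was compared at 6M with that of C57BL/6 (BL6) mice, the standard laboratory inbred strain. Every array of both groups entered the comparison, 6 SM/J arrays of mice given as 5 to 6 months old and 7 BL6 arrays of mice of 6 months, which is 13 of the 30 arrays of the series. Each array held RNA from the pooled tail discs of 1 mouse, and the labels give no treatment and no engineered allele. A further 4 arrays of LG/J mice at 6M, a strain known for good cartilage repair, shared the estimate of the spread and are named only where they bear on a result. The comparison covers 19505 genes, each read from 1 row of a Clariom S array, which carries probes for most protein-coding genes of the mouse.

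The NP is the gel-like core of the intervertebral disc, and its cells descend from the embryonic notochord. NP cells live without blood vessels at low oxygen and high osmolarity, rely mainly on glycolysis, and are known for the transcription factor Tbxt, for keratins 8, 18 and 19, for carbonic anhydrase 3 and for a matrix of aggrecan and type II collagen. In degenerating discs such cells can take on features of cartilage cells and of hypertrophic chondrocytes, the cells that precede bone and make type X collagen. Mitochondria, the lysosome and the protein folding machinery serve these cells as in other tissues, by making ATP, by degrading cargo and by keeping proteins in shape.

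The values are log2 intensities, so that a difference of 1 is a 2-fold change, and differences are given as SM/J minus BL6 with the standard error of limma. Calls required an adjusted p (Benjamini-Hochberg) under 0.05 together with at least a 2-fold change, and "rose" and "fell" are used of called genes only. At this rule 17.8% of all genes were higher in SM/J and 18.1% were lower. The interquartile range of the gene values was 3.10 to 3.63 on SM/J arrays and 4.66 to 4.87 on BL6 arrays, so the SM/J values had the narrower spread. The median of the negative control probes was 6.36 to 6.68 on SM/J arrays and 5.95 to 6.07 on BL6 arrays, and a gene whose group mean lay below its group's control median is called dim, or not above these controls. Of the 7812 genes not above these controls in either strain, 24.2% were called higher and 0.307% lower, whereas of the 9535 genes above them in both strains 7.24% were called higher and 32.6% lower. Genes of other organs such as prolactin, casein and insulin moved with the dim genes, with 11 of 27 called higher, none lower and a median difference of 0.92, which was 0.23 after quantile normalization. The difference thus followed the level of a gene, with a median of 0.82 in level bin 3 and -0.95 in level bin 9 of 10 bins of equal size from dim to bright, and after quantile normalization, which gives every array the same spread, these medians were 0.11 and -0.23. In bins 7 to 10, which hold the lists of bright genes described here, 30.5%, 39.6%, 46.7% and 40.6% of genes were called lower. After quantile normalization these shares were 27.1%, 20%, 13.9% and 10.5%. For this reason the medians of lists are set beside their quantile-normalized values. Most lists of bright genes are also set beside the genes of the level bin that holds their median level. No difference is given for a gene that was not above the controls in either strain. Array titles carry 1 date per strain, and strain and date cannot be told apart. Averaged over Eif2s3y, Kdm5d and Uty, genes of the Y chromosome, the level was 8.19 on SM/J array 3, 6.17 on SM/J array 6 and 3.32 to 3.60 on the other SM/J arrays, while on BL6 arrays it was 9.19 to 9.45 on 3 and 3.52 to 3.77 on 4. SM/J array 6 lay between the high and the low level. Without it 6650 genes were called in place of 7000.

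**Figure D1:**
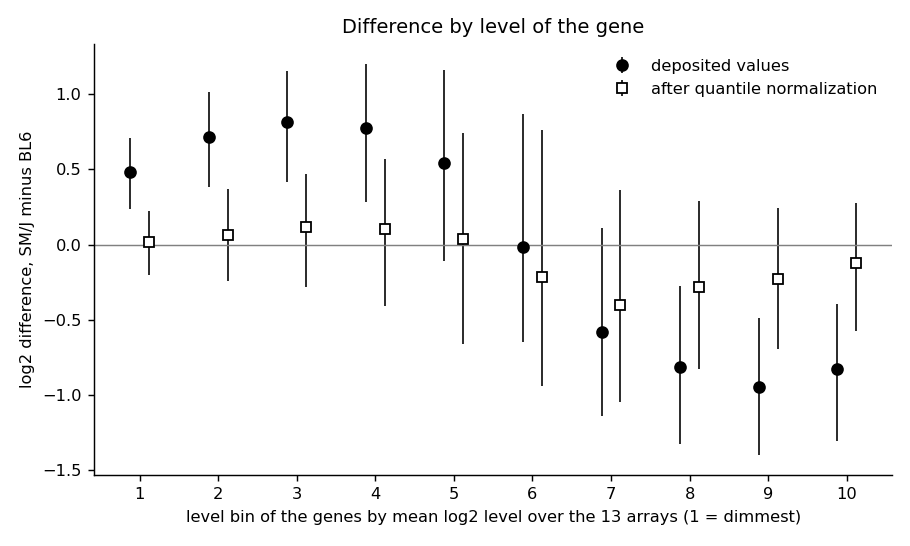
Median log2 difference of SM/J minus BL6 (y axis) in 10 bins of genes ordered by their mean log2 level over the 13 arrays (x axis, 1 is dimmest), for deposited values (filled circles) and after quantile normalization (open squares), with bars over the interquartile range. The medians of the deposited values lie above 0 in bins 1 to 5 and below 0 in bins 6 to 10, with 0.82 in bin 3 and -0.95 in bin 9.

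**Figure D2:**
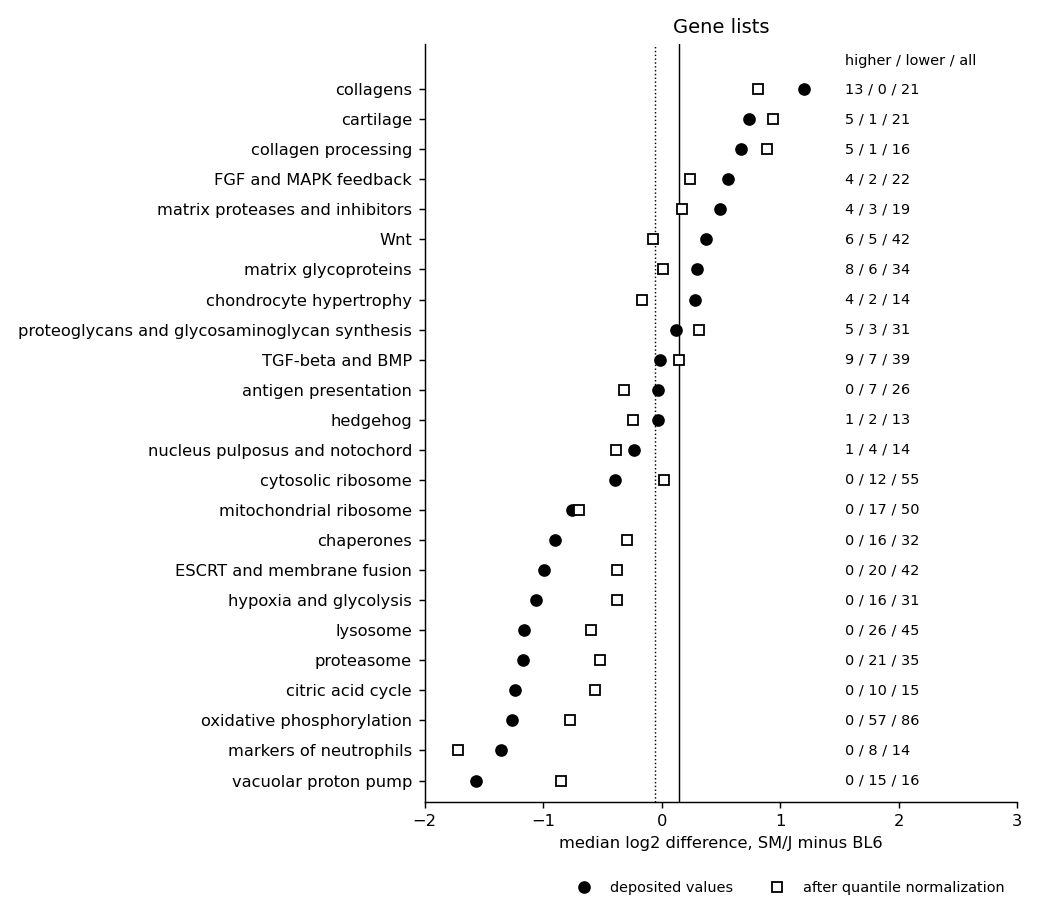
Median log2 difference of SM/J minus BL6 (x axis) of 24 gene lists (y axis) for deposited values (filled circles) and after quantile normalization (open squares), with the number of called genes that were higher and lower at the right; the medians of all genes are 0.15 for deposited values (solid line) and -0.05 after quantile normalization (dotted line). The vacuolar proton pump lies lowest at -1.56 and the collagens highest at 1.20.

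Among the genes that define NP cells the keratins were lower in SM/J. Krt18, a type I keratin of simple epithelia and NP cells, measured 10.52 to 12.48 (median 11.33) on SM/J arrays and 12.71 to 13.43 (median 13.03) on BL6 arrays and fell by 1.65 ± 0.23 (adjusted p = 1.81e-06; n = 6 and 7). Its partner Krt8 measured 14.98 to 16.00 (median 15.30) on SM/J arrays and 16.42 to 16.91 (median 16.77) on BL6 arrays, a difference of -1.32 ± 0.16. For both keratins every SM/J array lay below every BL6 array, as in 22.6% of all genes, while in 25.4% every SM/J array lay above. Of the 7 keratins and surface proteins listed, 4 fell and none rose (18.1% lower and 17.8% higher over all genes), with Krt19 at -1.20 ± 0.17 and Lgals3, the lectin galectin-3, at -1.27 ± 0.12. These 2 were picked after their values were seen. The list's median was -1.20, against -0.83 over the genes of its level bin 10, of which 40.6% were lower. After quantile normalization it was -0.87 and Krt8 and Krt18 were no longer called (-0.85 and -0.87).

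Of the other NP genes measured 1 rose and none fell. Car3, carbonic anhydrase 3 and one of the brightest genes on the arrays, measured 19.25 to 19.52 (median 19.34) on SM/J arrays and 19.20 to 19.40 (median 19.33) on BL6 arrays, with a difference of 0.04 ± 0.10 (adjusted p = 0.705). The glucose transporter Slc2a1 differed by -0.30 ± 0.13 (adjusted p = 0.0448), under the 2-fold threshold, with arrays of both strains overlapping. Noto, a homeobox gene of the notochord, rose by 1.19 ± 0.15 (adjusted p = 4.92e-07), at 7.34 to 8.01 (median 7.68) on SM/J arrays and 6.05 to 6.78 (median 6.66) on BL6 arrays. All SM/J values of Noto lay above all BL6 values, and its difference was 1.20 after quantile normalization. Shh, the hedgehog ligand of the notochord, differed by 0.65 ± 0.19 (adjusted p = 0.0039), short of a 2-fold change in the deposited values and 1.24 after quantile normalization. The tissue thus carried defining NP markers in both strains; Tbxt was not analysed here.

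The genes of the cartilage matrix, which the disc shares with articular and growth plate cartilage, were higher in part in SM/J. Col2a1, the chain of type II collagen, measured 10.00 to 12.51 (median 10.75) on SM/J arrays and 7.58 to 9.02 (median 8.59) on BL6 arrays and rose by 2.50 ± 0.33 (adjusted p = 1.05e-06). No SM/J array overlapped with a BL6 array. Of the 18 matrix genes listed 5 rose and 1 fell, and after quantile normalization 8 rose and 1 fell (8.81% and 12.9% over all genes). Their medians were 0.85 and 0.99, against 0.15 and -0.05 over all genes. In their level bin 8, 5.59% of genes were higher and 39.6% lower, and 9.48% and 20% after quantile normalization. The medians of that bin were -0.81 and -0.28. Acan, which encodes aggrecan and was picked after its value was seen, differed by 0.50 ± 0.11, below 2-fold. Cilp2, a matrix protein related to Cilp and likewise picked later, rose by 2.27 ± 0.32. Ucma, a secreted protein of young cartilage cells, went the other way and fell by 3.65 ± 0.32 (adjusted p = 3.76e-09), to 5.93 to 7.75 (median 6.70) in SM/J against 9.50 to 11.20 (median 10.57) in BL6. Sox9, the transcription factor of cartilage and NP, differed by 0.15 ± 0.25 (adjusted p = 0.592).

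A group of cartilage genes varied widely among the SM/J arrays. Cnmd, chondromodulin, measured 14.26, 6.04, 13.07, 10.48, 7.07 and 9.85 on SM/J arrays 1 to 6 and 7.03 to 8.50 (median 7.74) on BL6 arrays. Arrays 1 and 3 were far above the BL6 range and arrays 2 and 5 lay within or below it. The difference of 2.36 ± 1.00 (adjusted p = 0.0359) was called, and the call was lost without any one of SM/J arrays 1, 3 and 4 and BL6 arrays 2 and 3. Comp, a pentameric cartilage protein, measured 13.07, 7.06, 12.48, 9.01, 7.76 and 10.53 on the same arrays and 7.09 to 9.78 (median 7.92) on BL6 arrays, with a difference of 1.66 ± 0.81 that was not called (adjusted p = 0.0657). Chad, chondroadherin, measured 16.85, 9.81, 15.69, 12.58, 10.99 and 14.30 on SM/J arrays and 9.93 to 13.19 (median 11.17) on BL6 arrays, a difference of 1.88 ± 0.88 (adjusted p = 0.056). Cilp, a protein of the cartilage intermediate layer, measured 14.03, 6.78, 14.44, 11.14, 9.75 and 12.54 on SM/J arrays and 8.70 to 10.59 (median 9.68) on BL6 arrays. In all 4 genes arrays 1 and 3 held the highest values and arrays 2 and 5 the lowest. Comp, Chad and Cilp, which were picked after their values were seen, were called after quantile normalization, at 2.04, 2.59 and 2.23, while Cnmd at 2.58 was not.

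This order went beyond the list. Among the 11674 genes above the negative controls in either strain and not on the Y chromosome, the 40 with the largest standard deviation over the SM/J arrays had their highest value on array 1 in 36 genes, and their lowest on array 2 in 19 and on array 5 in 17. Their median standard deviation was 2.01 in SM/J and 0.55 in BL6, against 0.37 and 0.23 over the 11674 genes. They include Angptl7, an angiopoietin-like secreted protein, at 15.51, 7.80, 12.27, 8.25, 7.75 and 13.80 on SM/J arrays and 6.35 to 7.70 (median 7.26) on BL6 arrays. Prg4, lubricin, the lubricant of joint surfaces, is also among them, at 14.75, 7.53, 12.87, 9.30, 8.17 and 11.56 on SM/J arrays and 9.79 to 12.37 (median 11.65) on BL6 arrays. Both were chosen by their spread, which is a description with no test. The tendon and annulus fibrosus markers Scx, Tnmd and Mkx were not above the negative controls in either strain. Of the 8 genes of that list 1 rose and 2 fell, which is 12.5% and 25% against 20.9% and 15% in their level bin 6.

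**Figure D3:**
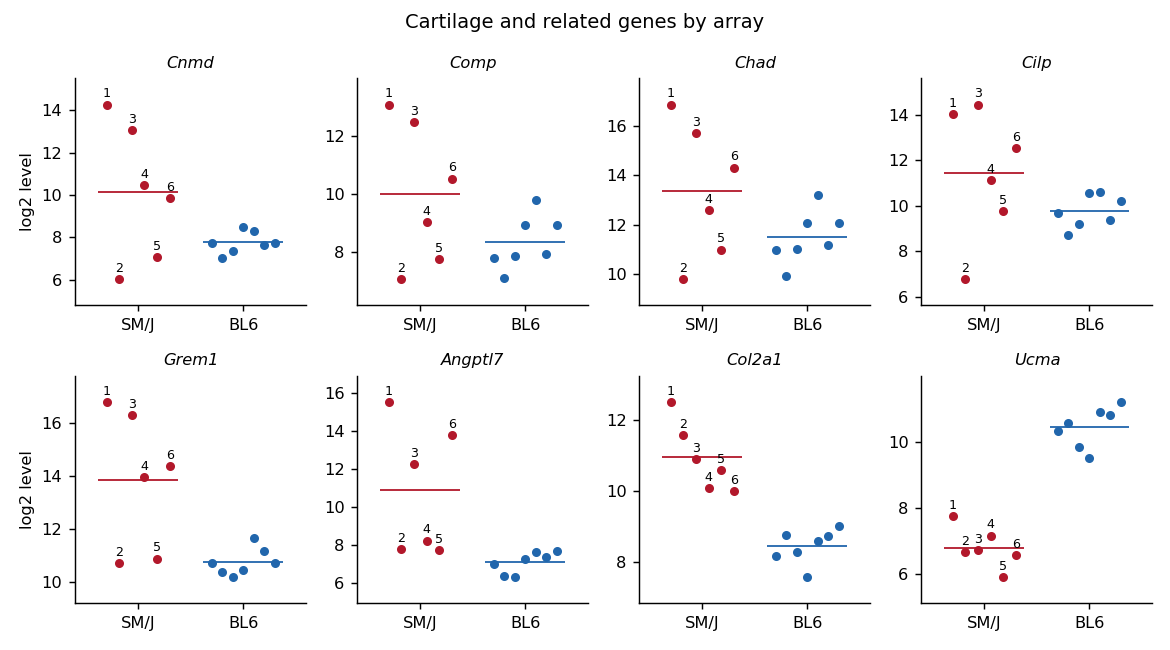
Log2 level of 8 matrix and signalling genes (panels, y axes) on each SM/J array (left, numbered 1 to 6) and each BL6 array (right), with the group mean as a bar. SM/J arrays 1 and 3 stand highest and 2 and 5 lowest for Cnmd, Comp, Chad, Cilp and Grem1, while Col2a1 and Ucma separate the strains on every array.

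Genes of hypertrophic cartilage were mixed. Col10a1, type X collagen and the textbook mark of hypertrophy, measured 8.18 to 12.47 (median 9.41) on SM/J arrays and 6.42 to 8.11 (median 7.30) on BL6 arrays and rose by 2.45 ± 0.60 (adjusted p = 9.43e-04), with no overlap between strains. Ccn2, the connective tissue growth factor made by NP and hypertrophic cells, rose by 2.40 ± 0.59 (adjusted p = 9.51e-04), at 12.98 to 15.34 (median 14.52) in SM/J and 10.29 to 12.99 (median 11.56) in BL6, where the lowest SM/J array lay just under the highest BL6 array. Runx1, a transcription factor of early chondrocytes, rose by 1.08 ± 0.35 (adjusted p = 0.00905) with overlapping arrays, and its call was lost without any one of SM/J arrays 1 and 3 and BL6 arrays 1 and 4. Vegfa, the vascular growth factor that hypertrophic cells and hypoxic cells secrete, rose by 1.08 ± 0.16, a call lost without SM/J array 2. Mef2c, a transcription factor that drives hypertrophy, fell by 2.19 ± 0.26, and Ibsp, the bone sialoprotein, fell by 3.40 ± 0.40 (adjusted p = 2.31e-07). Of 14 genes of this list 4 rose and 2 fell, which is 28.6% and 14.3% against 31.7% and 5.69% in their level bin 5. The list held 7 genes, the bone protein Bglap among them, that were not above the negative controls in either strain. The median of the 14 was 0.28 and turned to -0.16 after quantile normalization, when 4 rose and 3 fell. Runx2 was not analysed here.

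More collagen genes rose than fell, and genes of collagen processing rose more often than genes of like level. Of 21 further collagen genes 13 rose and none fell, against 31.7% higher and 5.69% lower in their level bin 5, with a median of 1.20 and of 0.82 after quantile normalization, when 7 rose and 1 fell. As 8 of the 21 were not above the negative controls in either strain, the count of the deposited values includes such dim genes. Col16a1, a fibril-associated collagen, rose by 1.61 ± 0.15, at 9.01 to 9.84 (median 9.53) in SM/J and 7.65 to 8.06 (median 7.84) in BL6, and Col6a3, of the pericellular microfibrils, rose by 1.20 ± 0.15 to 12.94 to 13.80 (median 13.37) in SM/J, against 11.98 to 12.50 (median 12.09) in BL6. Both genes separated the strains on every array. Col1a2, a chain of type I collagen, rose by 1.90 ± 0.51 with overlapping arrays, and Col15a1, of basement membranes, rose by 1.5 ± 0.24. Of 16 genes of collagen processing 5 rose, 1 fell and 10 were not called, against 2.82% higher and 46.7% lower in their level bin 9. After quantile normalization 6 rose and none fell, against 6.72% and 13.9% in that bin. Their median was 0.67, and 0.89 after quantile normalization, against -0.95 and -0.23 in that bin. Plod2, the lysyl hydroxylase for cross-links, rose by 1.47 ± 0.21, the prolyl hydroxylase P4ha3 by 1.62 ± 0.16 and the cross-linking oxidase Loxl3 by 1.73 ± 0.25 (adjusted p = 3.13e-06). For these 3 enzymes no SM/J array overlapped with a BL6 array, and their differences after quantile normalization were 2.21, 2.26 and 2.42. Pcolce, an enhancer of procollagen trimming, fell by 1.56 ± 0.19.

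The other matrix genes moved in both directions. Of 11 proteoglycan core proteins 4 rose and none fell, against 1.08% higher and 40.6% lower in their level bin 10. Among them biglycan (Bgn) rose by 1.54 ± 0.36 and asporin (Aspn) by 1.70 ± 0.49. Bgn measured 15.86, 13.47, 14.89, 13.14, 12.89 and 13.93 on SM/J arrays 1 to 6 and 11.94 to 13.06 (median 12.51) on BL6 arrays, so that its highest values again came from arrays 1 and 3. Aspn measured 10.01, 6.69, 9.70, 7.08, 6.41 and 7.81 on SM/J arrays and 5.82 to 7.08 on BL6 arrays. Its highest values came from the same arrays, and the strains overlapped. Of 20 genes of chain synthesis and sulphation 1 rose and 3 fell, with B3gat3, an enzyme of the linker sugar, at -1.28 ± 0.17. That is 5% higher and 15% lower, against 2.82% and 46.7% in their level bin 9. Adamts1, a protease that cuts aggrecan and versican, fell by 4.18 ± 0.30 (adjusted p = 2.22e-10), to 7.30 to 8.86 (median 8.29) in SM/J against 12.00 to 13.18 (median 12.19) in BL6. Adamts1 was as low in LG/J, at 8.49 ± 0.91 (SD, n = 4), and SM/J minus LG/J was -0.36 ± 0.34 (adjusted p = 0.335). Thbs4, a thrombospondin of tendon and annulus, rose by 1.75 ± 0.16, and Eln, the elastin precursor, by 1.52 ± 0.26. Ltbp1, which holds latent TGF-beta in the matrix, fell by 1.74 ± 0.17, and the basement membrane protein Nid1 fell by 1.62 ± 0.19. Of the 34 matrix glycoproteins 8 were higher and 6 lower, which is 23.5% and 17.6% against 20.9% and 15% in their level bin 6. Their median was 0.30, and 0.01 after quantile normalization with 6 higher and 4 lower.

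Genes of oxidative phosphorylation, the chain of 4 complexes and the ATP synthase of the inner mitochondrial membrane, were lower in SM/J. Of 86 genes 57 fell and none rose, against 18.1% lower over all genes and 32.6% among genes above the negative controls in both strains. The median difference was -1.26 in the deposited values and -0.78 after quantile normalization, when 34 fell and 2 rose; in level bin 9, which held the list's median level, 46.7% of all genes were lower and their medians were -0.95 and -0.23. By complex, 27 of 35 subunits of complex I fell, 4 of 4 of complex II, 7 of 9 of complex III, 6 of 11 of complex IV including cytochrome c, and 9 of 15 of the ATP synthase. Of 12 assembly factors of complex I 4 fell. The medians of the complexes ran from -1.53 for complex II to -1.06 for complex IV, and after quantile normalization from -1.15 for complex III to -0.36 for complex IV. Whether the complexes differ from each other was not tested.

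The largest falls came from several complexes. Ndufa9, an accessory subunit of complex I, measured 7.91 to 8.68 (median 8.28) on SM/J arrays and 10.36 to 10.75 (median 10.57) on BL6 arrays and fell by 2.24 ± 0.13 (adjusted p = 1.57e-11). Uqcrh, the hinge protein of complex III, measured 11.33 to 13.09 (median 12.05) in SM/J and 14.24 to 14.53 (median 14.37) in BL6, a difference of -2.24 ± 0.21. Sdha, the flavoprotein of complex II that is also a citric acid cycle enzyme, fell by 1.89 ± 0.18. In these genes, as in Cox6a1 of complex IV (-2.15 ± 0.17) and Atp5o, the stalk subunit of the ATP synthase (-2.75 ± 0.19), all SM/J arrays lay below all BL6 arrays. The values remained called after quantile normalization at -1.74, -1.50, -1.43, -1.39 and -2.18. The citric acid cycle, which feeds the chain, followed, with 10 of 15 genes lower (46.7% in its level bin 9) and none higher. The cycle's median was -1.24 (-0.56 after quantile normalization), against -0.95 and -0.23 in that bin. Its largest fall was in Pdha1, the catalytic subunit of pyruvate dehydrogenase at the entry to the cycle, at 7.95 to 9.62 (median 8.59) in SM/J and 11.37 to 11.81 (median 11.70) in BL6 and a difference of -3.00 ± 0.21. Mdh2, malate dehydrogenase, fell by 1.99 ± 0.14. Of 50 mitochondrial ribosomal proteins 17 fell (34%, against 30.5% in their level bin 7), with Mrps14 at -3.14 ± 0.24 and a median of -0.76 that was -0.70 after quantile normalization. Of 55 cytosolic ribosomal proteins 12 fell (21.8%, against 40.6% in their level bin 10), with a median of -0.39 and of 0.02 after quantile normalization.

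**Figure D4:**
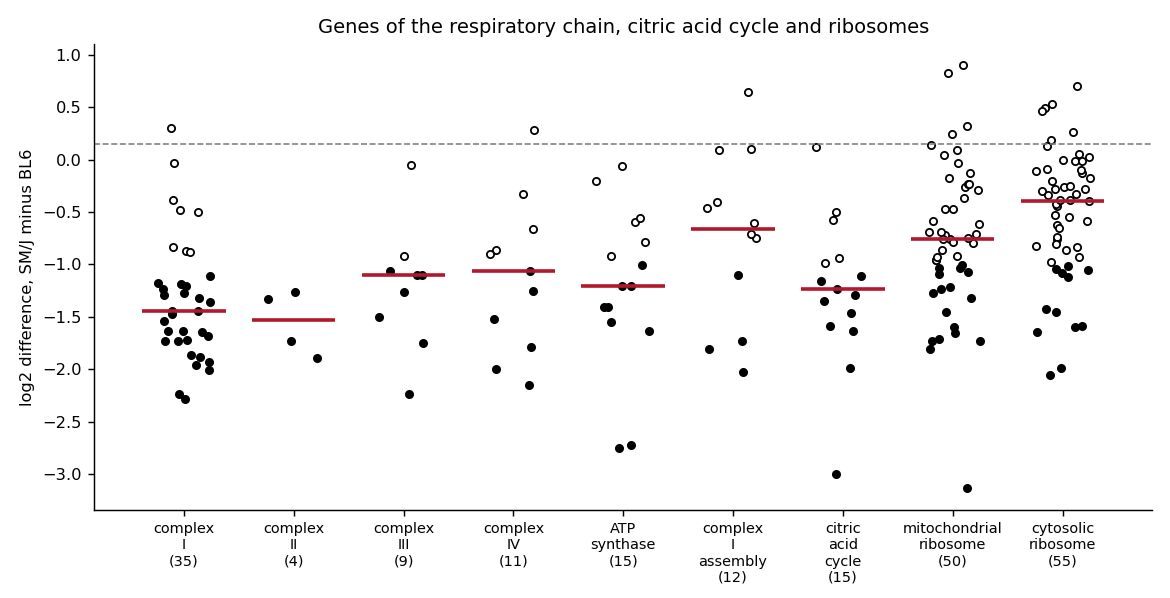
Log2 difference of SM/J minus BL6 (y axis, deposited values) of each measured gene of oxidative phosphorylation by complex, the citric acid cycle and the mitochondrial and cytosolic ribosome (x axis), with the median of each set as a bar; filled points passed the call and open points did not. The dashed line is the median of all 19505 genes, 0.15; the set medians lie between -1.53 for complex II and -0.39 for the cytosolic ribosome.

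The promoters of Ndufa9 and Atp5o are shown because both genes fell far within a list whose members mostly fell together. They are the 250 bases before the start of each gene in RefSeq (GRCm38.p6), with the last 50 in capitals, for Ndufa9 at chr6:126849145-126849394 on the minus strand and for Atp5o at chr16:91931631-91931880 on the minus strand. G and C made up 50% of each. Over the 73 promoters matched to the 86 genes of the list the median was 57.6%, against 56% over 15691 promoters of all genes, 46.4% over those of called higher genes and 60% over those of called lower genes.
Ndufa9: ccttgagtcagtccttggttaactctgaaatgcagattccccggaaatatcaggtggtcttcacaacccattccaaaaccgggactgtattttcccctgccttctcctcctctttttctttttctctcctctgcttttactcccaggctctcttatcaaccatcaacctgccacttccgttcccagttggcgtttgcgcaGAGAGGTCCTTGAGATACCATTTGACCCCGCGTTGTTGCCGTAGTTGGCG
Atp5o: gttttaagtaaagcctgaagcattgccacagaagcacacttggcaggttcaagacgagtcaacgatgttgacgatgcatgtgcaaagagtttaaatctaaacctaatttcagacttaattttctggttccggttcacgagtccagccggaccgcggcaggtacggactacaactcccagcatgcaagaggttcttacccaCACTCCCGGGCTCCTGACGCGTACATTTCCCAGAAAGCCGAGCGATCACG

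The proton pump and the hydrolases of the lysosome, the compartment where cells break down cargo, were lower in SM/J. Of 16 subunit genes of the vacuolar pump that acidifies it, 15 fell, against 46.7% lower in their level bin 9, with a median of -1.56 (-0.85 after quantile normalization, when 7 fell). Atp6v0e2, of the membrane sector, measured 7.19 to 8.29 (median 7.87) on SM/J arrays and 10.23 to 10.83 (median 10.59) on BL6 arrays, a difference of -2.73 ± 0.16, and Atp6v1d, of the rotor stalk, fell by 1.71 ± 0.11. Of 45 lysosomal genes 26 fell and none rose, with a median of -1.16 against -0.95 in the same bin, and after quantile normalization 13 fell and 1 rose with a median of -0.59. The protease Ctsc, which activates the serine proteases of immune cells, fell by 3.30 ± 0.23 (adjusted p = 1.54e-10), at 7.74 to 9.62 (median 8.45) in SM/J and 11.32 to 12.36 (median 11.67) in BL6. Gm2a, the activator for ganglioside breakdown, fell by 2.24 ± 0.18, and Npc2, the cholesterol carrier of the lysosome lumen, fell by 2.10 ± 0.17. Every SM/J array lay below every BL6 array in these genes, and all of them were called after quantile normalization. Man2b1, the lysosomal alpha-mannosidase, had the second largest fitted fall of all genes, to 6.20 to 7.21 (median 6.40) in SM/J, where it was not above the negative controls, against 15.15 to 15.71 (median 15.42) in BL6. With each SM/J array set to the higher of its own value and its control median, Man2b1 was at least 417-fold lower in SM/J. Lower bounds written as "at least" were made in this way, for genes that were not above the controls in 1 strain.

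Genes of the ESCRT machinery, which sorts membrane cargo into vesicles on the way to the lysosome, were lower about as often as genes of like level. Of 42 genes of ESCRT and vacuolar membrane fusion 20 fell and none rose, which is 47.6% against 46.7% in their level bin 9. Their median was -0.99 against -0.95 in that bin, and -0.38 against -0.23 after quantile normalization. Vta1, the cofactor of the VPS4 ATPase, fell by 2.05 ± 0.21, while of ESCRT-I Tsg101 fell by 1.76 ± 0.12 and Vps28 fell by 2.02 ± 0.19. Vps4a and Vps4b, the ATPases that take ESCRT-III apart, differed by -0.45 ± 0.18 (adjusted p = 0.0307) and -0.80 ± 0.14 (adjusted p = 4.46e-05), both below 2-fold. After quantile normalization these 2 values were 0.17 and -0.06. Vps35, the core of the retromer that returns receptors from endosomes, was picked after its value was seen and fell by 4.76 ± 0.14 (adjusted p = 3.73e-16), to 10.83 to 11.76 (median 11.15) in SM/J against 15.59 to 16.13 (median 15.99) in BL6.

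Genes of chaperones and the proteasome, which fold and remove proteins, differed by compartment in how many fell, which was not tested. Of 17 cytosolic chaperones 11 fell, against 40.6% in their level bin 10, with a median of -1.38 that was -0.64 after quantile normalization, when 4 fell. Cct2, a subunit of the ring that folds actin and tubulin, measured 11.30 to 12.50 (median 12.22) on SM/J arrays and 14.64 to 15.25 (median 14.99) on BL6 arrays and fell by 2.94 ± 0.18 (adjusted p = 2.38e-11). Hspa1a, the stress-inducible HSP70, fell by 2.93 ± 0.35, at 8.76 to 10.70 (median 9.53) in SM/J and 11.63 to 14.08 (median 12.33) in BL6. Of the HSP90 family Hsp90aa1, the inducible cytosolic form, differed by -0.04 ± 0.18 (adjusted p = 0.861) and Hsp90b1, the form of the endoplasmic reticulum, differed by -0.53 ± 0.13 (adjusted p = 1.00e-03), with arrays of the strains overlapping in both. Of 11 chaperones of the endoplasmic reticulum 4 fell, with Pdia6, a disulphide isomerase, at -1.26 ± 0.16 and calreticulin (Calr) at -1.16 ± 0.12, which is 36.4% against 40.6% in their level bin 10. The median of the 11 was -0.53 against -0.83 in that bin, and 0.12 after quantile normalization. Of the 4 mitochondrial chaperones Hspd1, the HSP60 protein, fell by 1.87 ± 0.15. Of 35 proteasome genes 21 fell and none rose, which is 60% lower against 46.7% in their level bin 9. Psmb2 of the core particle was at -3.07 ± 0.20 and Psmd3 of the regulatory particle at -1.72 ± 0.14. The median of the 35 was -1.17 against -0.95 in that bin. After quantile normalization 6 fell, which is 17.1% against 13.9% in that bin, and the median was -0.52 against -0.23.

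Among genes of glycolysis and of the response to low oxygen, on which NP cells depend, single genes fell far, while the share of glycolytic enzymes that fell was below that of genes of like level. Of 13 glycolytic enzymes 4 fell, which is 30.8% against 40.6% in their level bin 10, and their median was -0.72 against -0.83 in that bin. Those that fell include aldolase C (Aldoc) at -1.97 ± 0.22 and Pgam1, phosphoglycerate mutase, at -1.54 ± 0.16, and only Aldoc stayed called after quantile normalization (-1.19). The 3 transporters all fell, with Slc16a1, a lactate carrier, at -2.13 ± 0.21 and Slc2a3, a glucose carrier, at -1.74 ± 0.27. Of 15 hypoxia-inducible factors and targets 9 fell and none rose, against 40.6% lower in their level bin 10. Their median was -1.12 against -0.83 in that bin, and -0.38 against -0.12 after quantile normalization. Bnip3, a mitochondrial membrane protein that marks mitochondria for removal, measured 11.79 to 13.26 (median 12.02) on SM/J arrays and 15.13 to 15.62 (median 15.29) on BL6 arrays and fell by 3.11 ± 0.21 (adjusted p = 8.82e-11). Egln3, the prolyl hydroxylase PHD3 that limits HIF, fell by 2.77 ± 0.19, at 12.00 to 13.30 (median 12.38) in SM/J and 15.02 to 15.60 (median 15.22) in BL6. Neither gene's arrays overlapped between the strains, and the quantile-normalized differences were -2.39 and -2.08. The list as a whole had a median of -1.06 and of -0.38 after quantile normalization.

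Transporters that take up osmolytes, the small solutes with which disc cells balance the salt of their matrix, were lower as well. Slc6a12, the betaine carrier, measured 6.89 to 9.40 (median 8.19) on SM/J arrays and 10.75 to 11.52 (median 11.19) on BL6 arrays and fell by 3.10 ± 0.28 (adjusted p = 6.72e-09), and Slc6a6, the taurine carrier, fell by 1.79 ± 0.23, to 12.90 to 14.72 (median 13.86) in SM/J against 15.41 to 15.76 (median 15.59) in BL6. No SM/J array reached a BL6 array in these carriers. Sgk1, a kinase induced by osmotic stress, fell by 1.57 ± 0.23. Slc12a2, the sodium, potassium and chloride carrier NKCC1, differed by -0.32 ± 0.18 (adjusted p = 0.108). Of the 5 transporters and enzymes measured 4 fell, and 3 fell after quantile normalization, against 40.6% and 10.5% lower in their level bin 10.

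In TGF-beta and BMP signalling, which guides matrix synthesis and joint formation, both ligands and targets held genes that rose and genes that fell. Of 13 ligands 6 rose and 2 fell, against 9.23% higher and 30.5% lower in their level bin 7. Their median was 0.94 (0.87 after quantile normalization), against -0.58 and -0.40 in that bin. Bmp6 rose by 2.11 ± 0.26, at 9.11 to 10.84 (median 9.65) in SM/J and 7.37 to 8.12 (median 7.76) in BL6 with no overlap, and Inhba, the chain of activin A, rose by 2.20 ± 0.59 with most of the rise on arrays 1 and 3 (10.90, 7.33, 11.22, 7.83, 6.48 and 7.12 on SM/J arrays 1 to 6). Tgfb2 fell by 1.37 ± 0.26 and Bmp7 fell by 1.49 ± 0.25, both with overlapping arrays. The BMP antagonist Grem1 measured 16.76, 10.71, 16.27, 13.96, 10.87 and 14.36 on SM/J arrays and 10.19 to 11.64 (median 10.71) on BL6 arrays, a rise of 3.07 ± 0.76 (adjusted p = 0.00103) that was again highest on arrays 1 and 3 and lowest on 2 and 5. Of 5 targets 1 rose and 3 fell, against 1.08% higher and 40.6% lower in their level bin 10. Their median was -1.56 (-0.83 after quantile normalization), against -0.83 and -0.12 in that bin. Tgfbi, a matrix protein induced by TGF-beta, rose by 1.32 ± 0.32 with overlapping arrays, a call lost without SM/J array 1. Id2, an inhibitor of bHLH factors, fell by 2.95 ± 0.19 (adjusted p = 4.30e-11) and Id3 fell by 2.42 ± 0.32. Id2 measured 12.44 to 13.07 (median 12.58) on SM/J arrays and 15.14 to 16.36 (median 15.45) on BL6 arrays. Id2 and Id3 were low in LG/J too, at 12.15 ± 0.36 and 7.11 ± 0.70 (SD, n = 4).

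In the Wnt pathway the receptor Fzd2 fell by 2.24 ± 0.16 (adjusted p = 2.45e-10) and the ligand Wnt16 fell by 2.92 ± 0.14 (adjusted p = 5.11e-13), at 8.54 to 9.11 (median 8.68) in SM/J and 11.44 to 12.14 (median 11.65) in BL6. The secreted inhibitors Frzb and Wif1 rose by 2.08 ± 0.66 and 2.16 ± 0.53, with overlapping arrays and the highest values on SM/J array 1. Of 42 Wnt genes 6 rose and 5 fell, which is 14.3% and 11.9% against 17.8% and 18.1% over all genes. In their level bin 5 these shares were 31.7% and 5.69%. The list's median of 0.38 turned to -0.07 after quantile normalization, and 17 of the 42 were not above the negative controls in either strain. Gli1, the target and effector of hedgehog signals, was at least 2.29-fold higher in SM/J and was dim in BL6, while its inhibitor Sufu fell by 1.80 ± 0.19. Of the 13 hedgehog genes these were the only called members besides Gas1 (-1.52 ± 0.27), a co-receptor, and the median of the 13 was -0.03, or -0.24 after quantile normalization. In their level bin 7, 9.23% of genes were higher and 30.5% lower, with medians of -0.58 and -0.40. In the FGF pathway Fgf1 fell by 3.00 ± 0.29 (adjusted p = 1.53e-08), and Etv5, a transcription factor induced by FGF, rose by 2.63 ± 0.29, to 11.34 to 13.58 (median 12.00) in SM/J against 8.99 to 10.04 (median 9.71) in BL6. Of 22 FGF genes 4 rose and 2 fell, which is 18.2% and 9.09% against 31.7% and 5.69% in their level bin 5. Of 8 cell cycle inhibitors 2 fell and none rose, which is 25% lower against 30.5% in their level bin 7. Rb1 fell by 2.14 ± 0.17 and Cdkn1b fell by 2.04 ± 0.26. Of 12 proliferation genes 2 fell and none rose, which is 16.7% lower against 18.1% over all genes.

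Some antigen presentation genes and the neutrophil markers were lower in SM/J. Of 16 class I genes 5 fell and none rose, which is 31.2% lower against 30.5% in their level bin 7. Of 10 class II genes 2 fell and none rose, which is 20% lower against 0.82% in their level bin 3. The class II median was 0.45, and -0.17 after quantile normalization. B2m, the light chain of all class I molecules, measured 10.33 to 11.71 (median 10.68) on SM/J arrays and 15.69 to 16.00 (median 15.97) on BL6 arrays, a difference of -5.03 ± 0.19 (adjusted p = 1.34e-14). The class II chain H2-Ab1 measured 6.28 to 6.90 (median 6.78) in SM/J and 9.33 to 9.87 (median 9.80) in BL6, a difference of -3.02 ± 0.14, while 7 of the 10 class II genes were not above the negative controls in either strain. LG/J arrays were at 15.67 ± 0.26 for B2m and 9.83 ± 0.25 for H2-Ab1, close to BL6. The SM/J minus LG/J differences were -4.80 ± 0.22 and -3.15 ± 0.16 (adjusted p = 1.25e-12 and 5.17e-12). Of the neutrophil markers, S100a8 measured 4.63 to 8.98 (median 6.31) on SM/J arrays and 7.79 to 13.32 (median 11.44) on BL6 arrays. S100a9 measured 5.01 to 9.39 (median 7.19) on SM/J arrays and 7.07 to 12.41 (median 10.52) on BL6 arrays, and Ngp 5.51 to 9.29 (median 5.85) on SM/J arrays and 7.29 to 13.74 (median 11.64) on BL6 arrays, so that the strains overlapped in all 3. Of 14 neutrophil genes 8 fell and none rose, against 15% lower and 20.9% higher in their level bin 6. Their median was -1.35, and -1.72 after quantile normalization. The low level was not particular to SM/J, as the median of LG/J minus BL6 was -2.47. The median of SM/J minus LG/J was 1.01, with 4 genes higher and none lower (24.8% and 18.2% over all genes). The mean level of the list was 5.64 to 6.90 on SM/J arrays and 6.06 to 8.98 on BL6 arrays. With this level as a covariate 7793 genes were called, 3907 higher and 3886 lower, in place of 3463 and 3537. Of 9 macrophage genes 2 rose and 1 fell, with Csf1r at -1.12 ± 0.27, a call lost without SM/J array 6, and Adgre1, not above the negative controls in BL6, at least 1.79-fold higher. That is 22.2% higher and 11.1% lower, against 31.7% and 5.69% in their level bin 5. Of the markers that define B cells, T cells, endothelium, fat, skeletal muscle and epidermis, the first of each list (Cd79a, Cd3d, Cd3e, Pecam1, Cdh5, Adipoq, Plin1, Acta1, Krt5 and Krt14) were not above the negative controls in either strain. Over these lists 1 of 7 B cell, 2 of 9 T and NK cell, 2 of 9 endothelial, 2 of 7 fat, 2 of 14 muscle and 3 of 7 epidermal genes were called higher and none lower, and of these only Cd4 and Krt10 were above the controls in a strain. In level bins 2, 3 and 4, which hold the median levels of these lists, 26.1%, 35% and 37.5% of genes were called higher. Cd4, the co-receptor of helper T cells, measured 8.16 to 9.67 (median 9.11) on SM/J arrays and 6.81 to 7.27 (median 7.14) on BL6 arrays and rose by 2.01 ± 0.18 with no overlap, while Krt10, a keratin of upper epidermis, was at least 2.5-fold higher. Ckm, the muscle creatine kinase, lay above the controls in both strains and differed by -0.13 ± 0.15 (adjusted p = 0.457), and the endothelial Esam, picked after its value was seen, differed by 0.77 ± 0.13, below 2-fold. The part of other cells in the results was not tested. Prrx1, a factor of limb mesenchyme listed with tendon and annulus, was at least 14.7-fold lower, at 4.56 to 6.23 (median 5.48) in SM/J and 9.98 to 11.24 (median 10.25) in BL6.

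The largest differences of all came from single genes of unrelated function. Inmt, an enzyme that methylates indole amines, measured 4.92 to 7.18 (median 5.61) on SM/J arrays, where it was not above the negative controls, and 16.73 to 17.58 (median 16.93) on BL6 arrays, at least 1270-fold lower in SM/J. Pttg1, the securin that guards chromosome separation, measured 5.60 to 7.05 (median 6.38) in SM/J and 12.58 to 12.86 (median 12.69) in BL6, at least 68-fold lower. Cck, the peptide cholecystokinin, fell by 6.22 ± 0.20, Plagl1, an imprinted zinc finger gene, fell by 5.35 ± 0.20, and Gpnmb, a glycoprotein first known from melanoma cells, fell by 5.35 ± 0.21. The fatty acid carrier Cd36 and the zinc-alpha-2-glycoprotein Azgp1 were not above the negative controls in SM/J and were at least 14.4-fold and 25.6-fold lower. The rest of the 12 largest falls were Fam135b, at least 84.9-fold lower, Gm572, with a difference of -6.88 ± 0.23, Chit1, a chitinase of macrophages, at least 31.3-fold lower, and the neutrophil gene Ngp. The 12 were ranked by their fitted differences. Ngp, like Cd36, Azgp1 and Chit1, was not above the negative controls in SM/J. As the bounds of these genes are smaller than the fall of B2m, their place among the 12 is not certain. Several of these genes were also low in LG/J, with Inmt at 4.54 ± 0.26, Pttg1 at 6.94 ± 0.37, Fam135b at 6.24 ± 0.19 and Cck at 8.46 ± 0.59 (SD, n = 4). Gpnmb, Cd36 and Chit1 were not, at 12.17 ± 0.12, 10.61 ± 0.76 and 10.41 ± 0.10 in LG/J, and the test of SM/J against LG/J (18.2% of all genes lower and 24.8% higher) gave a difference of -5.26 ± 0.25 for Gpnmb, while SM/J was at least 17.1-fold lower for Cd36 and at least 14.8-fold lower for Chit1 (adjusted p = 1.57e-12, 5.03e-11 and 6.31e-13). Ccn3, a matricellular protein of cartilage picked after its value was seen, fell by 4.58 ± 0.34.

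The 12 largest rises were all genes of chromosomes 5 and X. Sema3d, a secreted guidance protein, measured 16.68 to 17.67 (median 17.33) on SM/J arrays and 11.85 to 12.79 (median 12.35) on BL6 arrays and rose by 4.92 ± 0.18 (adjusted p = 1.09e-14), with LG/J between them at 14.73 ± 0.21. The others, with log2 differences in parentheses, were Speer4c (6.15), Gm17019 (5.98), Speer4d (at least 37.6-fold), 4930572O03Rik (5.19), Btbd35f19 (4.90), Gm5935 (4.90), Gm10230 (4.88), Gm21671 (4.87), Gm14632 (4.86), Btbd35f20 (4.85) and Gm5862 (4.79). They include members of multicopy families whose near-identical copies can share probes, so their values cannot be assigned to 1 copy with certainty. Speer4c measured 12.07 to 13.34 (median 12.93) on SM/J arrays and 6.06 to 7.43 (median 6.71) on BL6 arrays, and no SM/J array overlapped with a BL6 array in any of the 12.

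**Figure D5:**
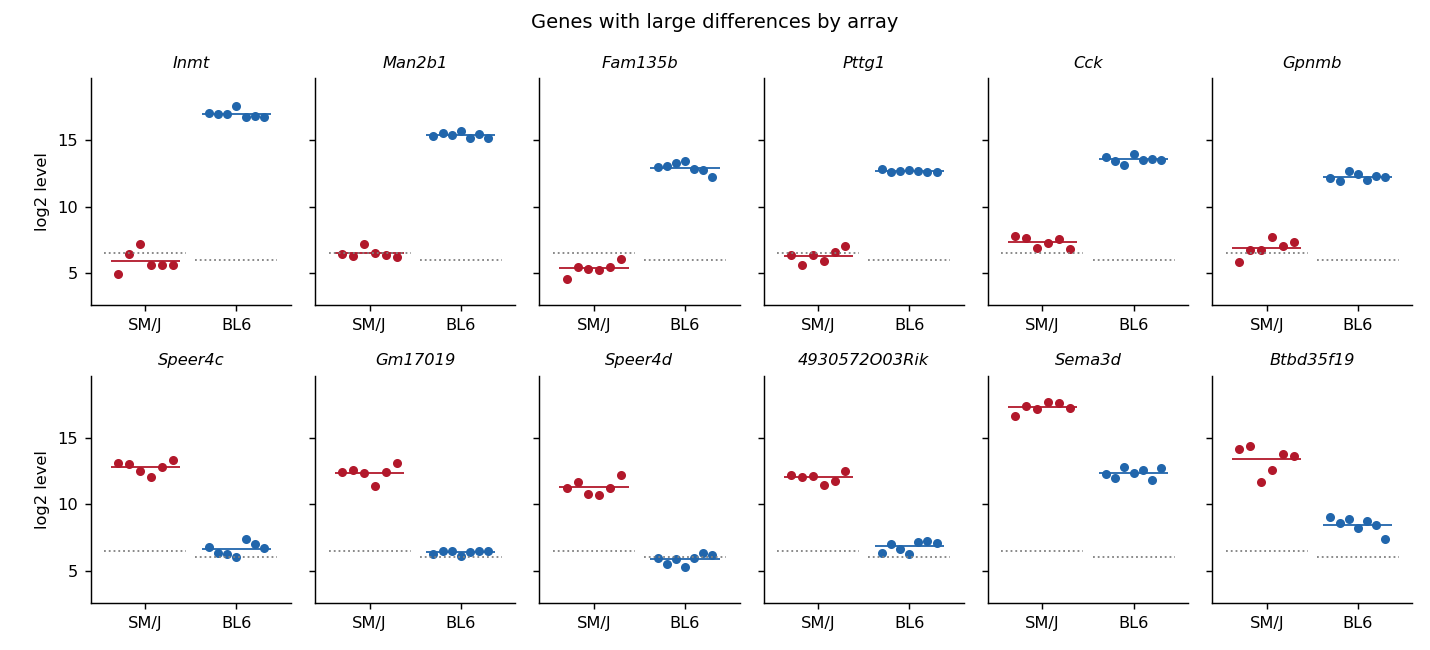
Log2 level (y axis) of 6 of the genes with the largest falls (upper panels) and 6 with the largest rises (lower panels) on SM/J arrays (left) and BL6 arrays (right), each point 1 array and each bar the group mean; the dotted lines mark the mean negative control level of each group. Inmt and Man2b1 lie at or near the control level in SM/J and above 15 in BL6.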

How the data were processed

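RNA from the NP of 6 SM/J, 7 BL6 and 4 LG/J mice at 6M was hybridised to Clariom S mouse arrays, 1 array per mouse. The deposited values are log2 intensities, which the authors obtained in Expression Console (RMA per the labels, signal space transformation with RMA in the study's methods), so background correction and normalization preceded every step here, and depth per array is not defined. Of 28846 rows, 6640 controls and 2634 rows without a single symbol were left out, and of genes with several rows the brightest was kept, which left 19505 genes. The 3 strains were fitted in limma 3.58.1 (R 4.3.3) with empirical Bayes moderation, in place of the significance analysis of microarrays of the study, at the same thresholds, and p-values were adjusted over all genes. The fit was tested on simulated data. Each mouse was 1 sample, and the number of arrays limits the precision. Promoter sequences were those of RefSeq (GRCm38.p6), matched by symbol for 15691 genes. Gene lists were described by counts and medians with no set test.

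The members and the lists were chosen with earlier results of these data known. Named genes were the 12 largest rises and falls, up to 4 called members per direction of each list (2 per role), defining markers, the Y-linked genes and genes that the study discusses for SM/J, unless stated otherwise. Alternatives changed the samples in the fit, the normalization, the moderation, the weights, the filter, the row rule, the covariates, the fold threshold and the set of arrays.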

Additional observations from a re-analysis of the deposited data

Results flagged for a closer look

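For 136 genes with levels in the text, the lowest and the highest array of each strain were set against the rest of their group with Dixon's test, and 12 of 272 groups held an array that stood apart. Chance alone flags about 1 group in 20. SM/J array 4 stood apart in 3 genes, with Bnip3 at 13.26 against 11.79 to 12.19 on the other SM/J arrays, Krt19 at 16.89 against 15.64 to 15.98, and Gm21671 at 10.29 against 11.40 to 12.04. SM/J array 1 was high in Col15a1 at 9.24, where the others lay between 8.13 and 8.39, and in Col1a2 at 12.55, where they lay between 8.38 and 9.91. SM/J array 2 was high in the neutrophil gene Ngp at 9.29 (others 5.51 to 6.66) and low in the lactate carrier Slc16a1 at 7.62 (others 8.57 to 8.95). Man2b1 measured 7.21 on SM/J array 3 and 6.20 to 6.53 on the other SM/J arrays. Among BL6 arrays, Adamts1 was high on array 6 at 13.18 (others 12.00 to 12.40), Csf1r on array 7 at 11.39 (others 10.29 to 10.74) and Inmt on array 4 at 17.58 (others 16.73 to 17.03), while Lgals3 was low on array 5 at 17.48 (others 17.64 to 17.75).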

How the results depend on the processing

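The 7000 calls, 3463 higher and 3537 lower, changed with the scaling of the arrays, the filter and the fold threshold. After quantile normalization 4229 genes were called, 1719 higher and 2510 lower, of which 3254 were shared with the same direction. Centring each array on its median, which moved the median of all genes to -0.18 from 0.15, gave 1769 higher and 5334 lower. With genes above the negative controls in either strain 1572 rose, and with genes above them in both strains 3800 were called, 689 of them higher, as fewer genes were tested. With no fold threshold 15291 genes were called, 8363 higher and 6928 lower. At 1.5-fold there were 12300, 6513 higher and 5787 lower, and at 4-fold 977, 424 higher and 553 lower. Leaving out 1 array at a time gave 6650 to 7541 calls, 3295 to 3693 higher and 3355 to 3848 lower.

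Sign changes were counted only for genes with an adjusted p under 0.05 in the main fit or called in the other fit. Of the 136 genes named with values, 3 changed sign by this rule, in 1 setting each. Genes with small differences, such as Car3 and Sox9, which changed sign after median centring, were not counted. Hsp90b1 was at 0.12 and Vps4a at 0.17 after quantile normalization, and S100a9 was at 0.22 with the neutrophil level as a covariate, a level that includes S100a9. The cause of the changes after quantile normalization was not tested. Of 118 called genes, 14 were no longer called after quantile normalization, 6 after median centring and 5 in at least 1 leave-one-out fit. Of 41 list medians, 24 moved by more than the spread between arrays after quantile normalization and 27 after centring. No paired analysis was possible because the labels of SM/J and BL6 arrays share no replicate number.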

Other observations

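Many of the genes with the largest rises belonged to families that the lists do not cover. Of 112 called genes that rose by more than 3 on the log2 scale and lay above the negative controls in SM/J, 43 were on the X chromosome, 17 on chromosome 14, 15 on chromosome 5 and 15 on chromosome 7. These chromosomes held 798, 683, 1138 and 1822 of the 19505 genes, in the same order. On the X chromosome 27.4% of 798 genes were called higher, against 17.8% of all genes. All 22 measured Btbd35f genes, a multicopy family of the X chromosome, rose, with a median of 3.98 in the deposited values and 4.50 after quantile normalization. All 10 Speer genes, a family known from spermatogenic cells, were called higher with a median of 3.33 and of 3.62 after quantile normalization, and 2 of them were not above the negative controls in either strain. The near-identical copies of both families can share probes, so that their genes are not independent values. Of 1091 olfactory receptor genes (Olfr), 609 were called higher with a median of 1.06, and 863 of them were not above the negative controls in either strain. After quantile normalization the median of the Olfr genes was 0.44. Of 120 Vmn2r pheromone receptor genes 93 rose with a median of 1.5, or 1.03 after quantile normalization, and 66 of them were not above the negative controls in either strain. Of 9 major urinary protein genes (Mup) 7 were called higher and none lower, with a median of 1.36, or 1 after quantile normalization, and 4 were not above the negative controls in either strain.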
